A study of Homo sapiens with 12 samples.

Results

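The snoRNA host genes GAS5, SNHG1, SNHG3, SNHG5, SNHG6, SNHG7, SNHG8, SNHG12 and ZFAS1 were followed over the 4 groups of this study. They were chosen by name, and their members are the probe sets whose only gene symbol is one of these 9. All 9 were found, with 115 of the 1411399 probe sets on the array, and all 9 were among the 16883 genes tested. After probe sets with a low mean had been left out, 85 of the 115 remained and 30 did not. Kept and listed probe sets numbered 17 of 27 for GAS5, 14 of 24 for SNHG1, 5 of 5 for SNHG3, 7 of 10 for SNHG5, 5 of 6 for SNHG6, 5 of 6 for SNHG7, 6 of 6 for SNHG8, 14 of 17 for SNHG12 and 12 of 14 for ZFAS1.

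A snoRNA host gene is transcribed into a spliced RNA whose introns carry small nucleolar RNAs, the guides for chemical modification of ribosomal and other RNA. The snoRNAs are trimmed out of the excised introns in the nucleus. The joined exons leave as a polyadenylated RNA that in these genes codes for no well-established protein. Many host RNAs start with a terminal oligopyrimidine (TOP) tract, as ribosomal protein mRNAs do, and several are destroyed in the cytoplasm by nonsense-mediated decay (NMD) when ribosomes meet their short reading frames. GAS5, SNHG1, SNHG5, SNHG6 and ZFAS1 host C/D box snoRNAs, SNHG3, SNHG7 and SNHG8 host H/ACA box snoRNAs, and SNHG12 hosts both kinds.

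The RNA came from the cytoplasm of U2OS, an osteosarcoma line of human origin, with K294A under the control of doxycycline. K294A is a catalytically dead version of the enzyme that puts caps back on uncapped RNA in the cytoplasm. All 12 samples carry the construct, so the uninduced groups are cells with the construct switched off, and the labels do not say whether the line is 1 clone. Induced cells received doxycycline at 1 ug/ml for 24 h. After removal of ribosomal RNA, the RNA of the Xrn1 groups was digested in the test tube with Xrn1, which digests RNA from a 5′ end that bears a monophosphate and spares capped RNA. The groups are uninduced untreated, uninduced Xrn1, induced untreated and induced Xrn1, with 3 arrays each, called biological replicates by the labels without a statement on separate cultures. P-values therefore rest on the spread between these samples. In the gene fit all genes share 1 SD of 0.418, so an SE or p-value does not reflect a gene's own spread. In uninduced untreated samples, for example, the SD was 0.85 for GAS5 and 0.06 for SNHG6.

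The annotated starts of the host genes are shown because the TOP tract lies at the very start of a transcript. Each line gives 20 bases before the RefSeq start and 30 bases from it on, with coordinates on GRCh38.p14. A run is a C followed by at least 4 pyrimidines that begins within 10 bases of the start. Capitals mark only the run that begins nearest to the start, and any further run, as in SNHG7, is left in lower case. The table of promoters used here held 8 of the 9 genes, all but SNHG6.
GAS5, chr1:173869016-173869065, minus strand: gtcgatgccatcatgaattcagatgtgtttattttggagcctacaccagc
SNHG1, chr11:62855856-62855905, minus strand: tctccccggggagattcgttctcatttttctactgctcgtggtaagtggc
SNHG3, chr1:28505923-28505972, plus strand: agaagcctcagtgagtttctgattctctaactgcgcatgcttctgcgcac
SNHG5, chr6:85678704-85678753, minus strand: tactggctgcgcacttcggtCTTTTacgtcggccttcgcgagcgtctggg
SNHG7, chr9:136728155-136728204, minus strand: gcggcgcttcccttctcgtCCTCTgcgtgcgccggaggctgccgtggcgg
SNHG8, chr4:118278742-118278791, plus strand: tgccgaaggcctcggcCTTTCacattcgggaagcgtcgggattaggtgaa
SNHG12, chr1:28581844-28581893, minus strand: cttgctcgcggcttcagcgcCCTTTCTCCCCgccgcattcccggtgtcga
ZFAS1, chr20:49278622-49278671, plus strand: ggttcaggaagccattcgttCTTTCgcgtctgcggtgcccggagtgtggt

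In SNHG5, SNHG12 and ZFAS1 the run began exactly at the annotated start, which is 3 of 8 genes (37.5%) against 4.07% of the 35116 promoters in the table. The run in SNHG12 was 11 bases long. With the wider window of 10 bases on either side, 5 of 8 (62.5%) held a run, against 33.5% of all promoters. Among cytosolic ribosomal protein genes, 43 of 63 had a run at the start. These are matches of letters at annotated starts on the transcribed strand, and an annotated start can differ from the one used in U2OS cells. For each named gene only the first entry was read, while the shares of all promoters count every entry. Any other starts of these genes were not read, so the lack of a run here does not settle whether a gene has a TOP tract.

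The values are log2 values per probe set, normalised by the authors with RMA, and a gene's level is the mean of its kept probe sets. RMA gives all arrays the same distribution of probe values, so every change is relative to the other RNA on the array and a higher value after digestion need not be a gain. Levels are compared between samples of one gene and not between genes. The median gene level lay between 3.08 and 3.82 on the 12 arrays, and the gene levels of induced untreated replicate 3 had a correlation of 0.979 with those of uninduced untreated replicate 3, against 0.835 and 0.870 with its own group. Uninduced Xrn1 replicate 2 stood furthest apart, with 0.711 and 0.847 within its group and at most 0.758 with any array outside it; it is the digested array of uninduced sample 5, whose untreated array is uninduced untreated replicate 2. Of the markers of mesenchymal cells, 9 of 9 were measured, with a mean level of 5.09 to 6.34 over the arrays. Of the 11 markers of other cell types, 9 were measured, with a mean level of 2.60 to 3.33. The mesenchymal mean combines unlike levels. Group means were 8.19 to 8.85 for COL1A1 and 7.92 to 9.09 for LGALS1. They were 3.11 to 3.87 for RUNX2 and 3.05 to 3.88 for COL1A2, near the median gene level. As levels are not compared between genes, the marker means only describe the arrays and do not tell the cell type. Nuclear noncoding RNAs (5 of 5 measured) averaged 5.39 to 5.95 in induced untreated, 6.20 to 6.32 in uninduced untreated, 4.55 to 4.90 in induced Xrn1 and 4.48 to 4.91 in uninduced Xrn1 samples. These means combine unlike levels, with group means of 9.95 to 11.29 for RN7SK and 2.19 to 2.83 for KCNQ1OT1. The part of these nuclear RNAs in the results below was not tested.

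**Figure D1:**
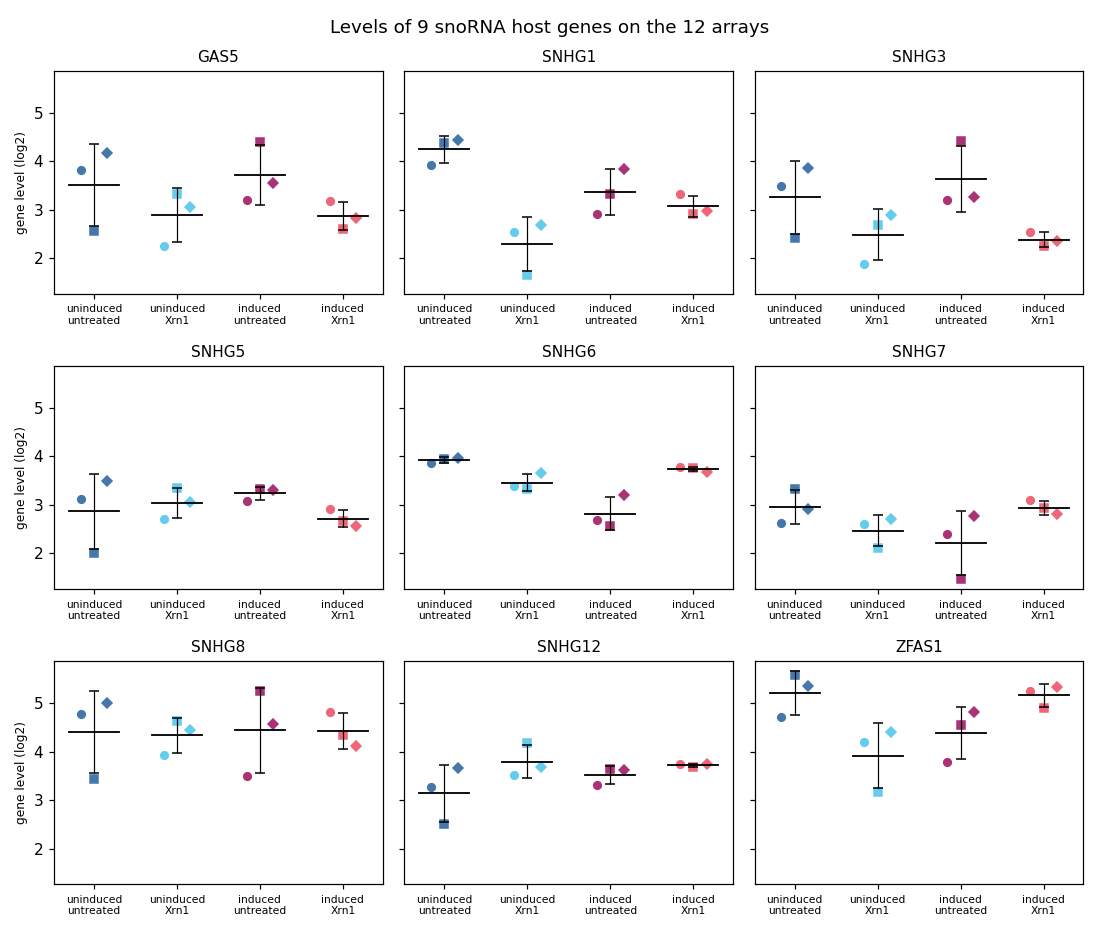
Gene level (log2) of the 9 snoRNA host genes in the 4 groups; each point is 1 array, its shape gives the replicate number within the group, the line is the group mean and the bar is 1 SD (n = 3). SNHG1 and ZFAS1 are lower with Xrn1 in every uninduced sample, while ZFAS1 and SNHG6 are higher with Xrn1 in every induced sample.

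In uninduced cells, SNHG1 and ZFAS1, both C/D box hosts, were lower after Xrn1, and the other 7 host genes did not pass the test. SNHG1 was 3.93, 4.37 and 4.44 in the untreated samples and 2.55, 1.66 and 2.68 after Xrn1. Every digested sample was below every untreated one, and SNHG1 fell by 1.95 ± 0.34 (log2 change ± SE, n = 3 and 3, adjusted p = 1.35e-07), a 3.86-fold lower level. ZFAS1, the host of SNORD12 family snoRNAs, was 4.71, 5.57 and 5.34 untreated and 4.19, 3.16 and 4.40 digested. The ZFAS1 groups did not overlap and the level fell by 1.29 ± 0.34 (adjusted p = 0.000771). Without both arrays of uninduced sample 5 the ZFAS1 change was -0.73 (adjusted p = 0.126), and after cyclic loess scaling it was -0.25 (adjusted p = 0.521). Thus 2 of 9 host genes were called, both lower, where 39.0% of all genes were called, 7.24% higher and 31.8% lower.

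The other host genes in uninduced cells differed by less than the test required. SNHG3, an H/ACA host, was 3.49, 2.41 and 3.86 untreated and 1.89, 2.69 and 2.88 digested, a change of -0.77 (adjusted p = 0.0607) in which the low array of the untreated group, replicate 2, overlapped the digested ones. GAS5, a growth-arrest transcript with snoRNAs in most of its introns was 3.81, 2.56 and 4.17 untreated and 2.26, 3.33 and 3.06 digested, again with overlap, a change of -0.63 (adjusted p = 0.131). Without that untreated replicate, GAS5 fell by 1.11 (adjusted p = 0.0188) and SNHG3 fell by 1.19 (adjusted p = 0.0113). SNHG6 was 3.86, 3.95 and 3.97 untreated and 3.39, 3.33 and 3.65 digested; its groups did not overlap, yet the change of -0.47 missed the threshold (adjusted p = 0.279). With SNHG1 and ZFAS1 that made 3 of 9 genes without overlap, all lower, against 44.8% of all genes, 11.2% higher and 33.6% lower. SNHG12 was 3.26, 2.50 and 3.65 untreated and 3.52, 4.17 and 3.68 digested, a change of 0.65 (adjusted p = 0.115) that passed the test under both other scalings: 1.01 (adjusted p = 0.00296) after centring on the median gene and 1.07 (adjusted p = 0.00181) after cyclic loess. Without both arrays of uninduced sample 5, which hold the lowest untreated and the highest digested value, it was 0.15 (adjusted p = 0.728). SNHG5, SNHG7 and SNHG8 had changes of 0.17, -0.48 and -0.07, and for SNHG8 the sign turned after cyclic loess, to 0.83 (adjusted p = 0.0351).

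In induced cells the host genes split. SNHG3 and GAS5 were lower with Xrn1 and SNHG6 was higher. SNHG3 was 3.21, 4.41 and 3.26 untreated and 2.54, 2.24 and 2.36 digested, with no overlap, and fell by 1.25 ± 0.34 (n = 3 and 3, adjusted p = 0.00198), a 2.37-fold lower level. GAS5 was 3.19, 4.40 and 3.54 untreated and 3.19, 2.61 and 2.83 digested; it fell by 0.84 ± 0.34 (adjusted p = 0.0391), and its lowest untreated and highest digested samples nearly touched. SNHG6, the host of SNORD87, was 2.69, 2.56 and 3.21 untreated and 3.77, 3.76 and 3.68 digested, and rose by 0.92 ± 0.34 (adjusted p = 0.0228), a 1.89-fold higher level. The call of 3 of 9 genes, 1 higher and 2 lower, stands beside 39.3% of all genes, 21.6% higher and 17.8% lower. All 3 calls were lost without induced untreated replicate 2, where 14.2% of all genes were called and SNHG3 was -0.86 (adjusted p = 0.0941), GAS5 -0.49 (adjusted p = 0.346) and SNHG6 0.79 (adjusted p = 0.123). SNHG6 also lost the call without induced untreated replicate 1 (0.85) or any 1 induced Xrn1 array (0.90 to 0.95), and GAS5 without induced untreated replicate 3 (-0.92), induced Xrn1 replicate 2 (-0.70) or 3 (-0.81) or uninduced Xrn1 replicate 3 (-0.84). Fitted with each gene's own spread, SNHG3 (adjusted p = 0.0889) and GAS5 (adjusted p = 0.234) lost the call, where 8.84% of all genes were called. With the median of probe sets GAS5 (-0.90, adjusted p = 0.0814) and SNHG6 (0.75, adjusted p = 0.165) lost it, where 28.3% of all genes were called.

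ZFAS1 went the other way from its course in uninduced cells, with 3.79, 4.54 and 4.82 untreated and 5.25, 4.89 and 5.32 digested. Every digested sample was above every untreated one, and the change of 0.77 missed the threshold (adjusted p = 0.0581); after cyclic loess it was 1.03 (adjusted p = 0.00749). SNHG7, an H/ACA host, was 2.40, 1.48 and 2.77 untreated and 3.10, 2.93 and 2.80 digested, a change of 0.73 (adjusted p = 0.0755). SNHG1, the member with the deepest drop in uninduced cells, was 2.90, 3.33 and 3.85 untreated and 3.32, 2.90 and 2.97 digested; the groups overlapped and the change was -0.29 (adjusted p = 0.534). SNHG5, SNHG8 and SNHG12 had changes of -0.53, -0.01 and 0.20. Without regard to the test, 4 genes (SNHG6, SNHG7, SNHG12 and ZFAS1) lay wholly above and 3 (GAS5, SNHG3 and SNHG5) wholly below their untreated samples. Of all genes, 50.9% had no overlap, 28.3% higher and 22.6% lower.

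**Figure D2:**
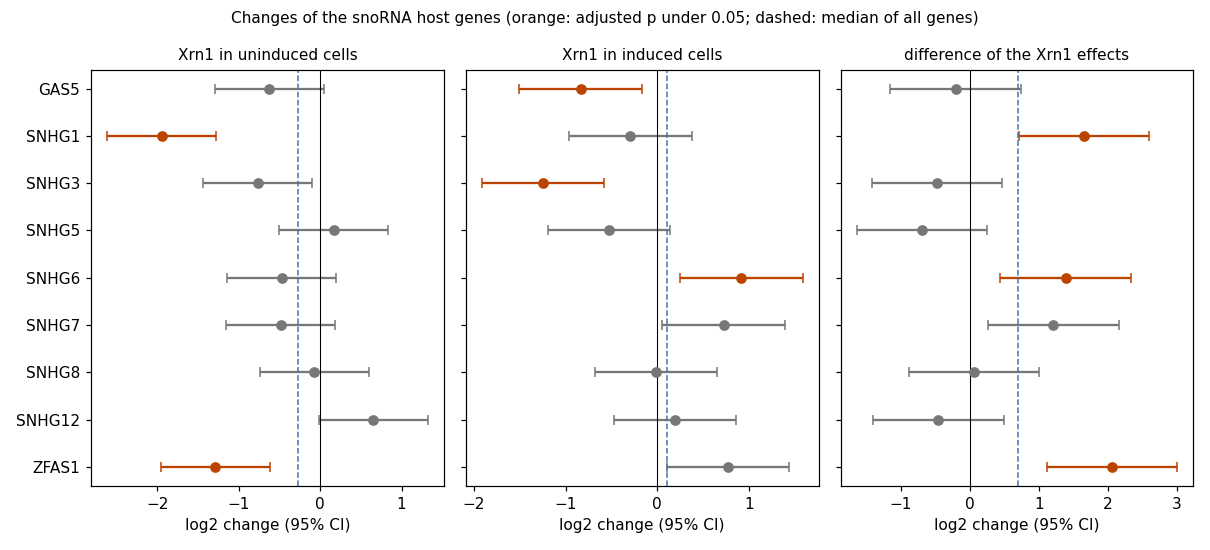
Log2 change with its 95% confidence interval for each host gene. The panels show Xrn1 in uninduced cells, then in induced cells, then the induced minus the uninduced change; orange marks an adjusted p under 0.05 and the dashed line is the median of all genes tested. SNHG1 and ZFAS1 lie left of the median in uninduced cells and right of it in the difference.

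The difference of the Xrn1 effects, the change in induced minus the change in uninduced cells, was past the threshold for 3 of 9 host genes, ZFAS1, SNHG1 and SNHG6, all higher. It was 2.06 ± 0.48 for ZFAS1 (adjusted p = 0.00563), 1.66 ± 0.48 for SNHG1 (adjusted p = 0.0189) and 1.39 ± 0.48 for SNHG6 (adjusted p = 0.0338); for SNHG7 it was 1.21 (adjusted p = 0.0529). Of all genes, 21.8% were called, 20.6% higher and 1.23% lower, and the median of all genes was itself 0.70. Centring on the median gene brought that median to 0.23 and left ZFAS1 alone among the host genes past the threshold; cyclic loess brought it to 0.15 and left no host gene and 2.51% of all genes past it, with ZFAS1 at 1.28 (adjusted p = 0.0614), SNHG1 at 1.18 (adjusted p = 0.0596) and SNHG6 at 0.83 (adjusted p = 0.0942). The other 5 host genes had differences between -0.70 for SNHG5 and 0.06 for SNHG8. Leaving out both arrays of uninduced sample 5 gave 1.50 for ZFAS1, 1.27 for SNHG1 and 1.31 for SNHG6, each with an adjusted p of 0.133; in that fit 1 of the 16883 genes was called. All 3 calls were also lost without induced untreated replicate 1, induced Xrn1 replicate 3 or uninduced Xrn1 replicate 2, with ZFAS1 at 1.77, 1.98 and 1.69, SNHG1 at 1.43, 1.70 and 1.34 and SNHG6 at 1.32, 1.42 and 1.33. In these fits the share of all genes called was 0.592%, 0.296% and 0.379%, so calls were lost across all genes and not only in the host genes. Those of SNHG1 and SNHG6 were lost without induced Xrn1 replicate 1 (1.53 and 1.37) or uninduced untreated replicate 3 (1.56 and 1.37), and that of SNHG6 without induced untreated replicate 2 (1.26) or induced Xrn1 replicate 2 (1.38).

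Averaged over both induction states, SNHG1, SNHG3 and GAS5 were lower after Xrn1, and the other 6 did not pass the test. SNHG1 fell by 1.12 ± 0.24 (adjusted p = 2.15e-05), SNHG3 by 1.01 ± 0.24 (adjusted p = 0.000163) and GAS5 by 0.73 ± 0.24 (adjusted p = 0.00814). SNHG12 was at 0.43 (adjusted p = 0.136) and rose by 0.55 (adjusted p = 0.017) and 0.56 (adjusted p = 0.0145) after centring and after cyclic loess, but was at 0.17 (adjusted p = 0.446) without both arrays of uninduced sample 5. The share of 3 of 9 is read beside 44.0% of all genes, 14.2% higher and 29.8% lower, and the median of the 9 was -0.18 where that of all genes was 0.05. GAS5 lost the call without induced untreated replicate 2 (-0.56, adjusted p = 0.058), without uninduced untreated replicate 3 (-0.57, adjusted p = 0.064) and without uninduced Xrn1 replicate 1 (-0.58, adjusted p = 0.0645). Fitted with each gene's own spread, SNHG3 (adjusted p = 0.0502) and GAS5 (adjusted p = 0.134) lost the call, where 32.5% of all genes were called. With the median of probe sets GAS5 was at -0.68 (adjusted p = 0.054), where 35.1% of all genes were called.

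Induction of K294A called no host gene in either kind of RNA under limma. Without Xrn1, 4 of 9 had an unadjusted p under 0.05, all lower: SNHG6 at -1.11 and SNHG1 at -0.89 (adjusted p = 0.11 for both), ZFAS1 at -0.82 (adjusted p = 0.117) and SNHG7 at -0.74 (adjusted p = 0.135). Induced and uninduced samples did not overlap for SNHG6 and SNHG1, 2 of 9, both lower, against 23.2% of all genes, 5.82% higher and 17.4% lower. GAS5, SNHG3, SNHG5, SNHG8 and SNHG12 lay between 0.03 and 0.38. Of all 16883 genes, 7 were called (0.0415%), 0.0118% higher and 0.0296% lower. The array named above, induced untreated replicate 3, resembled an uninduced one; with it left out, 4 host genes fell, SNHG6 by 1.30 (adjusted p = 0.00747), SNHG1 by 1.13 (adjusted p = 0.0136), SNHG7 by 1.02 (adjusted p = 0.0202) and ZFAS1 by 1.04 (adjusted p = 0.0297). In that fit 41.0% of all genes were called, 517 higher and 6405 lower, so 4 of 9 is near the share of all genes.

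Among Xrn1-treated samples, induction gave 2 of 9 an unadjusted p under 0.05, both higher: ZFAS1 at 1.24 (adjusted p = 0.182) and SNHG1 at 0.77 (adjusted p = 0.532). Together with SNHG6 (0.28) and SNHG7 (0.47) they lay wholly above the uninduced samples, 4 of 9 against 34.4% of all genes, 31.3% higher and 3.13% lower. Of all genes, 10 were called (0.0592%), 0.0533% higher and 0.00592% lower. A fit of these 6 arrays alone called ZFAS1 (adjusted p = 0.000272) and SNHG1 (adjusted p = 0.0364) at the same sizes, where 6.12% of all genes were called, 991 higher and 43 lower, and with no filter on dim probe sets ZFAS1 was called at 1.29 (adjusted p = 0.0465). The comparisons with and without Xrn1 and within each induction state share samples, so their values are given side by side only.

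Over all 12 arrays the members fell into sets, which were seen in the data and are described without a test. GAS5, SNHG3, SNHG5, SNHG8 and SNHG12 had a median pairwise Pearson correlation of 0.67 (range 0.05 to 0.96 over 10 pairs), highest between GAS5 and SNHG3. SNHG1, SNHG6, SNHG7 and ZFAS1 had 0.61 (0.36 to 0.81 over 6 pairs), and pairs across the sets -0.35 (-0.63 to 0.40). The arrays share group, labelling and normalisation. Without the arrays of uninduced sample 5 the medians over 10 arrays were 0.59 (-0.22 to 0.97), 0.50 (0.11 to 0.81) and 0.09 (-0.60 to 0.77), and the sets no longer held: SNHG1 correlated at 0.77 with GAS5 of the other set and at 0.27 and 0.11 with SNHG6 and SNHG7 of its own.

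Some of the genes whose level ran most like a host gene over the 12 arrays have roles in RNA processing, others do not; the measure was Pearson's r. For GAS5 they were ACP1 (0.978), a phosphatase, and SRSF7 (0.975), a splicing factor; for SNHG3, TAF11 (0.977), a subunit of TFIID, and again SRSF7 (0.970). SNHG1 ran with the kinase gene STK24 (0.984) and the spliceosome disassembly factor TFIP11 (0.983), and ZFAS1 with the exosome subunit gene EXOSC5 (0.960) and DNAJC4 (0.959). SNHG5 ran with ST7L (0.988) and ZCCHC4 (0.971), SNHG6 with EMX2 (0.955) and IER2 (0.943), SNHG7 with PNPLA4 (0.975) and WIPF2 (0.964), SNHG8 with LMO4 and BTG2 (both 0.942), and SNHG12 with ATAD3B (0.987) and HTRA3 (0.986). These are the highest of 16874 correlations for each gene.

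Single probe sets each read a short stretch of a transcript, and those of one gene did not always move together. In the averaged Xrn1 contrast, 31 of the 85 kept probe sets passed the test, 8 higher and 23 lower, which is 36.5% against 23.1% of the 705699 probe sets tested (11.7% higher and 11.4% lower). The 705699 were not limited to probe sets with a gene symbol, and 1038473 of the 1411399 on the array carry none. The shares are thus of unlike sets, and no excess in the host genes is read from them. Of the 31, 30 kept their sign and their call after cyclic loess scaling of the probe sets and 0 changed sign. SNHG1 had 11 of 14 probe sets lower, GAS5 5 of 17 and SNHG3 2 of 5. SNHG12 had 3 of 14 higher and SNHG6 and SNHG7 1 of 5 each, while the 7 of SNHG5 lay between -0.83 and 0.89 and did not pass. ZFAS1 (2 higher and 4 lower of 12) and SNHG8 (1 and 1 of 6) held probe sets of both directions.

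**Figure D3:**
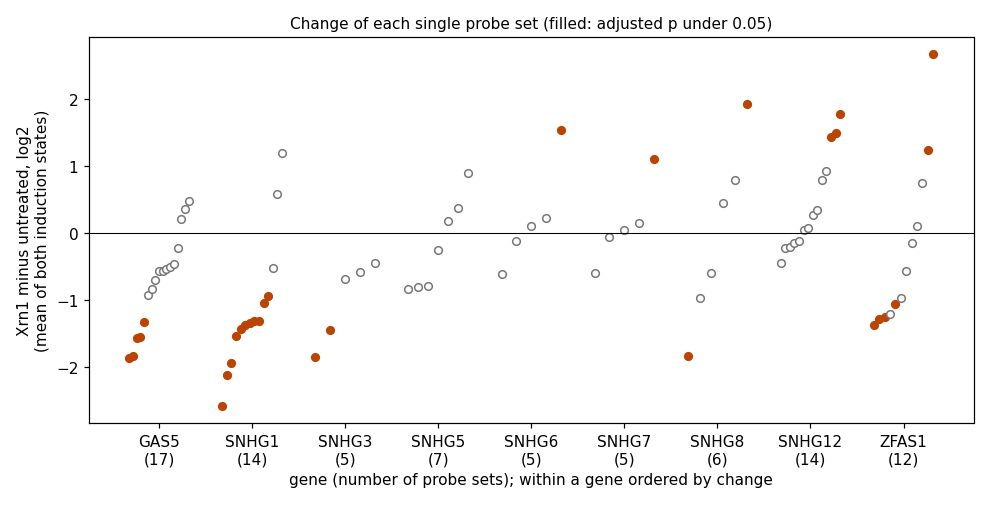
Change with Xrn1, averaged over both induction states (log2), of each kept probe set of the 9 host genes, ordered by change within a gene; filled points have an adjusted p under 0.05. SNHG1 holds 11 lower probe sets, SNHG12 holds 3 higher ones, and ZFAS1 and SNHG8 hold filled points on both sides of 0.

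The brightest probe set of SNHG1, 3376280, read 6.04, 7.19 and 6.59 in uninduced untreated samples and 2.94, 2.64 and 3.51 after Xrn1. In induced samples it read 5.33, 7.02 and 5.88 untreated and 4.52, 3.75 and 5.24 digested. All digested samples were below all untreated ones of their state, and the averaged change was a fall by 2.57 ± 0.38 (n = 6 and 6, adjusted p = 1.4e-05). The brightest of GAS5, 2916934, fell by 1.55 ± 0.44 (adjusted p = 0.0116), and that of SNHG3, 2327492, by 1.45 ± 0.39 (adjusted p = 0.00703). The IDs of the GAS5 probe sets form 3 separate runs with 4, 19 and 4 listed and 1, 13 and 3 kept, and 2916934 lies outside the largest run; where on the genome they lie was not analysed here, so it is not settled that 2916934 reads GAS5. With the largest run alone, the GAS5 gene level kept every call or lack of one.

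The brightest probe set of SNHG12, 2403569, went the other way: 5.91, 4.74 and 6.07 uninduced untreated against 8.05, 6.79 and 7.47 with Xrn1, and 5.16, 6.46 and 6.42 induced untreated against 8.14, 8.09 and 6.87. The digested samples were above all untreated samples of their state, and the probe set rose by 1.77 ± 0.39 (adjusted p = 0.0012). SNHG7's brightest, 3230346, rose by 1.09 ± 0.38 (adjusted p = 0.0391), a call lost after centring (0.95, adjusted p = 0.063) and after cyclic loess (0.91, adjusted p = 0.075). The brightest probe sets of SNHG5 (2963480, 0.89, adjusted p = 0.087), SNHG6 (3138886, 0.23, adjusted p = 0.736), SNHG8 (2740968, 0.78, adjusted p = 0.17) and ZFAS1 (3888279, -0.97, adjusted p = 0.0639) did not pass.

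For ZFAS1 and SNHG8, the called probe sets of the highest and the lowest averaged change are given; these genes were picked after their values had been seen. ZFAS1 probe set 3888266 read 4.59, 3.61 and 4.97 uninduced untreated and 6.36, 6.17 and 6.97 with Xrn1, then 3.29, 2.63 and 5.80 induced untreated and 6.97, 7.68 and 6.71 with Xrn1. It rose in both states, by 2.11 ± 0.62 (adjusted p = 0.0181) and 3.21 ± 0.62 (adjusted p = 0.00151). Probe set 3888280 of the same gene read 6.39, 7.68 and 7.06 uninduced untreated and 4.92, 4.35 and 5.60 with Xrn1, and fell by 2.09 ± 0.52 (adjusted p = 0.00572). In induced cells it read 6.53, 7.10 and 6.34 untreated and 5.77, 5.38 and 6.80 with Xrn1, a change of -0.67 (adjusted p = 0.415) between overlapping groups. In uninduced cells, 7 of the 12 kept ZFAS1 probe sets fell and 1 rose; in induced cells 2 rose. Over all 85 kept probe sets of the host genes, 5 rose and 22 fell in uninduced cells. There 18.4% of all probe sets, with or without a gene symbol, were called (7.54% higher and 10.8% lower). In induced cells 5 rose and 5 fell, where 12.4% were called (6.89% higher and 5.52% lower). The gene mean of ZFAS1 thus combines opposite readings.

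SNHG8 probe set 2740966 read 4.99, 3.66 and 4.87 uninduced untreated and 6.93, 6.04 and 6.76 with Xrn1, and rose by 1.92 ± 0.44 averaged over both states (adjusted p = 0.00182). Probe set 2740973 read 5.17, 2.92 and 5.39 uninduced untreated and 0.94, 3.79 and 3.03 with Xrn1, and fell by 1.84 ± 0.47 on average (adjusted p = 0.0047). In induced cells the first read 3.01, 5.35 and 5.25 untreated and 6.91, 6.94 and 5.09 digested, and the second 4.24, 5.35 and 4.84 untreated and 3.39, 3.30 and 2.44 digested. The gene level of SNHG8, whose average change stayed under the threshold in all alternatives tried, is a mean over such readings. Whether they lie in exons or introns was not analysed here.

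**Figure D4:**
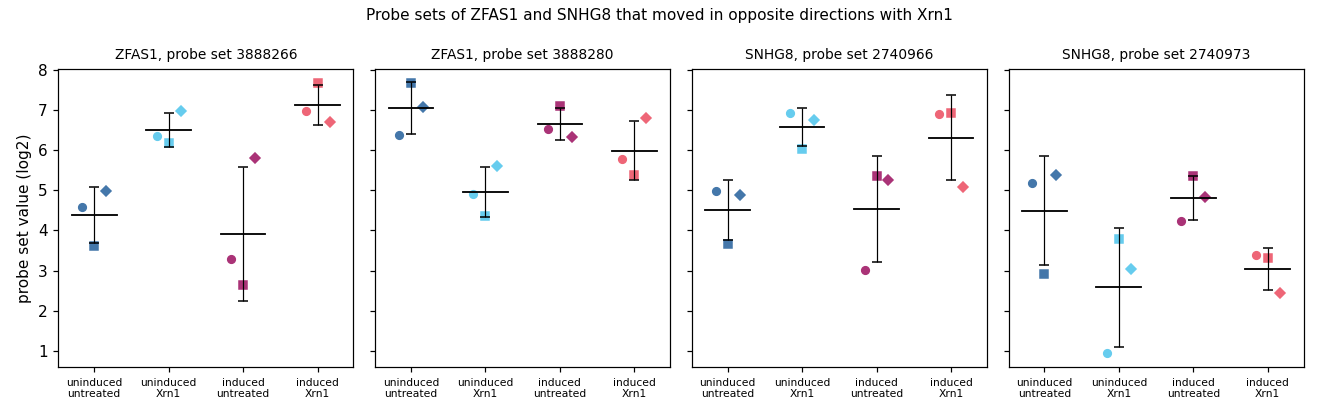
Probe set values (log2) of ZFAS1 and SNHG8 in the 4 groups; points are arrays with shapes for the replicate number, lines are means and bars are 1 SD (n = 3). ZFAS1 3888266 and SNHG8 2740966 have higher means with Xrn1 in both states, ZFAS1 3888280 and SNHG8 2740973 lower ones.

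Related genes give the setting, from lists chosen with earlier results of these data known, all in the averaged Xrn1 contrast and beside the all-gene median of 0.05 and the 44.0% of all genes called, 14.2% higher and 29.8% lower. Of 8 measured genes in a list of other host genes, noncoding except for TAF1D, 1 rose and 1 fell, with a median of 0.15. The gene that fell, by 1.77, was TAF1D, which codes for a subunit of a polymerase I initiation factor. SNHG11 rose by 0.72, and SNHG32 was at -0.48. Of 27 protein-coding genes that host snoRNAs, 23 fell, with a median of -1.48; HSPA8, a heat shock cognate chaperone, fell by 3.26, ATP5F1B, an ATP synthase subunit, by 2.95, and EIF5, an initiation factor, by 2.36. The snoRNP and snoRNA processing factors had 1 of 19 higher and 11 lower (median -0.65), with COIL, the coilin of Cajal bodies, at -1.64, DKC1, the H/ACA pseudouridine synthase, at -1.61 and RPAP3 at -1.47. After cyclic loess, 54.2% of all genes were called in this contrast, 4644 higher and 4501 lower, and the all-gene median was 0.12. Under that scaling, 2 genes of the list with TAF1D rose and 2 fell. In the list of coding hosts 1 rose and 20 fell (median -0.72), and 3 snoRNP factors rose and 8 fell (median -0.34). The coding hosts and the snoRNP factors share 2 genes.

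Genes with TOP tracts fell as well, but this depended on the scaling for ribosomal proteins. Values after cyclic loess stand beside the 54.2% of all genes called there, 4644 higher and 4501 lower, and a median of 0.12. Of 69 cytosolic ribosomal protein genes, 38 fell and 3 rose (median -0.74; RPL6 at -1.91, RPL4 at -1.83 and RPL9 at -1.61), whereas after cyclic loess 34 rose and 2 fell with a median of 0.46. Of 26 other TOP genes, 23 fell and 1 rose (median -1.63), EIF3L by 3.01 and the importin genes IPO5 and IPO7 by 2.96; after cyclic loess 12 fell and 2 rose, with a median of -0.35. Of 27 NMD-sensitive transcripts, 16 fell (median -0.65), among them AZIN1 by 3.46, ASNS by 1.83 and SMG1 by 1.87, and after cyclic loess 11 fell and 2 rose. Of 15 NMD factor genes, 10 fell (median -0.66), PNRC2 by 2.18 and EIF4A3 by 1.57; 4 genes stand in both NMD lists. Of the nuclear RNAs, 4 of 5 fell, TUG1 by 2.75, MALAT1 by 2.30 and NEAT1 by 0.96. The mesenchymal markers had 5 of 9 lower and 2 higher (CDH2 fell by 2.48, SPARC by 1.73 and VIM by 1.43), and the markers of other cell types had 2 of 9 higher (APOA1 by 0.60 and GFAP by 0.57, with MYH7 at 0.46).

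The scaling of the arrays sets the zero of all these changes. The median of all genes in the uninduced Xrn1 contrast was -0.27 as deposited, 0.09 after centring on the median gene and 0.07 after cyclic loess, and in the induced contrast it was 0.10, about 0 and 0.01. The split of all called genes in uninduced cells went from 1223 higher and 5367 lower to 3695 and 3692 after cyclic loess. SNHG1 fell with Xrn1 in uninduced cells in all 24 alternatives tried, between -2.14 and -1.46, with adjusted p from 2.7e-08 to 0.00365. SNHG3 in induced cells lay between -1.45 and -0.86 and was called in 21 of 23 alternatives; SNHG6 in induced cells lay between 0.75 and 1.12 and was called in 17 of 24.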

How the data were processed

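The data are 12 exon arrays of cytoplasmic U2OS RNA, 3 in each of 4 groups. The authors deposited 1 log2 value per probe set and array, computed with RMA and oligo per the submitters' processing notes (version not given in the sources used here), and these were not normalised again. Probe sets were named through the platform annotation, with older symbols updated (ZFAS1 stood under C20orf199); 357604 carry 1 symbol, 15322 several and 1038473 none. The members and all lists were chosen with earlier results of these data known. The title of 1 induced Xrn1 sample repeats replicate number 2; it was taken as replicate 1 from its sample number.

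Probe sets entered the analysis if their 12-array mean exceeded the median of all probe sets, 2.04. Members just inside were SNHG12 2403576 (2.08), SNHG1 3376304, SNHG6 3138885 and SNHG7 3230352 (each 2.10) and SNHG7 3230342 (2.11); just outside were SNHG5 2963475 and SNHG1 3376288 (both 1.93). Genes with at least 3 kept probe sets were tested with limma 3.58.1 (lmFit and eBayes, R 4.3.3) over all 12 arrays and 4 group means, adjusted by Benjamini-Hochberg over 16883 genes at 0.05; the prior was infinite, so all genes share an SD of 0.418. Single probe sets were tested likewise over 705699, with or without a gene symbol. The number of arrays, 3 per group, limits the precision. The fit was tested on simulated data with independent noise of the same SD for all genes and arrays. It therefore cannot tell how the fit behaves with unequal spreads or with deviations shared within an array.

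Alternatives were the probe set summary, the filter, the scaling, the prior, the samples fitted, replicate blocks and each array left out. Named were all members, each member's brightest probe set, in every other list the 3 genes with the smallest p in the averaged Xrn1 contrast, and for each member the 2 genes with the highest correlation; other names are marked where they occur. Markers of mesenchymal cells, other cell types and nuclear RNA described the material.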

Additional observations from a re-analysis of the deposited data

Results flagged for a closer look

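For 3 host genes the Xrn1 effect differed between induced and uninduced cells by the limma test of the difference itself. It was 2.06 for ZFAS1, with a change of -1.29 in uninduced and 0.77 in induced cells. It was 1.66 for SNHG1, with changes of -1.95 and -0.29. It was 1.39 for SNHG6, with changes of -0.47 and 0.92. Of these changes, 0.77 for ZFAS1 (adjusted p = 0.0581), -0.29 for SNHG1 (adjusted p = 0.534) and -0.47 for SNHG6 (adjusted p = 0.279) did not pass. The median of all genes in this difference was 0.70, and 20.6% of all genes were called in the same direction. Fitted with each gene's own spread, the adjusted p of the difference was 0.0925 for each of the 3, and 0 of all genes were called. In the test of single probe sets, 0 of theirs passed for the difference. The share of all probe sets that passed there was not counted, so no result about these genes is read from the 0.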

How the results depend on the processing

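Counts of host genes called were 2, 3 and 3 for Xrn1 in uninduced cells, in induced cells and averaged, 0 for induction in untreated as in digested RNA, and 3 for the difference. Of 1248 values of single host genes under other settings, 1156 kept their side of the threshold (1091 with the same sign and 65, none of them called, with the other), 57 lost the threshold, 34 gained it, and 1 turned sign past it: SNHG8 in uninduced cells, 0.83 after cyclic loess. The count for induced cells became 5 after cyclic loess (2 higher, 3 lower), and 1 with a spread fitted per gene or with a replicate block by sample number. In these fits 45.3%, 8.84% and 31.1% of all genes were called, in the same order. With a spread per gene the averaged count was 1, where 32.5% of all genes were called. The count for the difference became 1 after centring, with probe sets above the upper quartile and with the replicate block by sample number, and 0 after cyclic loess, with a spread per gene and without both arrays of uninduced sample 5; of all genes 21.8% were called in that contrast, 2.51% after cyclic loess, 0 with a spread per gene and 1 gene without sample 5. For the difference, 11% of all genes were called after centring and 8.37% with probe sets above the upper quartile. With the block by sample number it was 0.859%. Induction with Xrn1 gave 1 with no filter, where 0.075% of all genes were called. It gave 2 with only the groups compared, where 6.12% of all genes were called. Leaving out single arrays gave 2 to 4 (uninduced), 0 to 4 (induced), 2 to 3 (averaged), 0 to 4 (induction without Xrn1), 0 to 0 (induction with Xrn1) and 0 to 4 (difference). The share of all genes called in these fits moved too. For Xrn1 it was 30.5% to 43.1% (uninduced), 14.2% to 47.3% (induced) and 35.1% to 51% (averaged). For induction it was 0% to 41% without and 0.00592% to 0.0829% with Xrn1, and for the difference 0.296% to 49.8%. The 4 in uninduced cells came without uninduced untreated replicate 2; in induced cells the count was 0 without induced untreated replicate 2 and 1 without induced Xrn1 replicate 2 or 3. The difference gave 0 without induced untreated replicate 1, induced Xrn1 replicate 3 or uninduced Xrn1 replicate 2, and 1 without induced Xrn1 replicate 1 or uninduced untreated replicate 3. Leaving out induced untreated replicates 1 and 3 together, chosen after seeing the data, gave 2 for induction without Xrn1, where 23.7% of all genes were called. The causes were not tested. A replicate block over the replicate numbers gave 2, 3, 3, 0, 0 and 3. The shares of all genes called were 37.9%, 38%, 42.7%, 0.00592%, 0.0415% and 17.9%, in the same order. Arrays of the same sample number deviated from their group means with correlations of -0.71 to 0.13, so the numbers were not taken as pairs; with the block by sample number GAS5 and SNHG6 lost the call in induced cells (adjusted p = 0.0759 and 0.0501), and SNHG1 and SNHG6 in the difference (0.0644 and 0.082). The number of arrays and the low signal of probe sets near the filter limit what can be told.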

Other observations

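Probe sets that carry the symbol of a host gene together with another gene were kept out of the gene levels, 26 in all. Those naming GAS5 and one of its snoRNAs (3) were all below the filter, and of the 6 naming SNHG1 and a snoRNA, 2 were above it; they had averaged Xrn1 changes of 0.20 (3376278, with SNORD22, adjusted p = 0.762) and -0.31 (3376303, with SNORD26, adjusted p = 0.609). SNHG7 shared 12 probe sets with SNORA43 or SNORA17, chosen here after their values were seen. One of them, 3230356, averaged 6.85 ± 0.37 in uninduced untreated and 8.21 ± 0.42 in uninduced Xrn1 samples, and 6.74 ± 0.31 and 8.18 ± 0.54 in the induced ones (SD, n = 3), a rise of 1.39 (adjusted p = 0.00333). Its neighbour 3230353 averaged 7.15 ± 0.53, 6.99 ± 0.22, 7.27 ± 0.35 and 7.40 ± 0.38 in the same order, a change of -0.02 (adjusted p = 0.979).

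SNHG3 shares 3 probe sets with RCC1, the nucleotide exchange factor gene that follows it. Of these, 2327487 averaged 5.73 ± 0.45 and 2.77 ± 0.36 in uninduced untreated and Xrn1 samples and 4.92 ± 1.42 and 2.43 ± 1.82 in the induced ones (SD, n = 3), and fell by 2.72 (adjusted p = 0.000173). Probe sets 2327483 and 2327491 did not pass, with averaged changes of 0.29 (adjusted p = 0.632) and -0.84 (adjusted p = 0.163). With probe sets of several symbols added, the SNHG3 gene level fell by 0.92 with Xrn1 in uninduced cells (adjusted p = 0.021), and SNHG7 rose by 0.81 in induced cells (adjusted p = 0.0469).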
